A study of Mus musculus with 18 samples.

Results

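The genes described here encode the extracellular matrix of the liver and the cells that lay it down: 36 genes for collagens, matrix glycoproteins and proteoglycans, matrix crosslinking enzymes, metalloproteinases and their inhibitors, growth factor receptors, contractile proteins and stellate cell proteins. They were chosen by gene symbol from a written list, with earlier results of these data known. Of the 36, 34 had a probe set annotated to that symbol alone, among 18193 genes measured in that way. No such probe set was annotated to Fbn1, and the probe sets of Loxl2 are shared with Gm21451, so neither is described. Each gene was read from 1 probe set, the one with the highest mean intensity over the 18 arrays. Genes had to exceed the 40th percentile, an intensity of 88.2 to 97.6 depending on the array, on 3 or more arrays to be tested. Lox did not, at an intensity between 73.2 and 90.9 on the 18 arrays, which left 33 tested members among 14198 tested genes.

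Livers came from male C57BL/6J mice aged 62 weeks, each measured on 1 Affymetrix Mouse Genome 430 2.0 array, with 3 mice in each of 6 groups. Diets with 10% fat (LF) and 60% fat (HF) were each combined with 3 regimens. These were feeding ad libitum (LF, HF), calorie restriction by 30% of the intake of the group fed the same diet ad libitum (LF+CR, HF+CR), and ad libitum feeding with a voluntary running wheel (LF+Ex, HF+Ex). All groups shared strain, sex, age and single housing, and the regimens began at 5 weeks of age. Only 3 mice of each larger cohort were arrayed, which limits the precision of every value. Values are linear probe set intensities. They were compared as log2(intensity + 16), so the fold changes below are on that scale and understate those of dim genes. A change was called when limma's Benjamini-Hochberg adjusted p over all tested genes was below 0.05.

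Collagen in the liver is made mainly by hepatic stellate cells, which lie between hepatocytes and the sinusoidal endothelium and store vitamin A as retinyl ester when quiescent. Transforming growth factor beta and platelet-derived growth factor turn them into contractile, matrix-secreting myofibroblasts. Fibrillar collagens are then deposited, metalloproteinases degrade matrix, and tissue inhibitors of metalloproteinases restrain that degradation. Obesity and fatty liver are settings in which this programme can be active. In whole-liver RNA, a higher signal from more cells of a type cannot be told apart from more RNA in each cell.

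The promoters of 3 collagen genes are shown because these genes carry the main patterns below. Col3a1 and Col1a2 were highest on the same 3 arrays, and Col6a1 was called in a comparison of regimens. Each sequence is the 250 bases before the annotated start in RefSeq's GRCm38.p6 annotation, 5′ to 3′ on the coding strand. Capitals mark CAGAC or its reverse complement GTCTG, a core bound by SMAD proteins, and TGACTCA or its reverse complement TGAGTCA, the core of AP-1 sites. No capitals of the 2 motifs overlapped each other, and no other annotated gene overlapped a window.
Col3a1, chr1:45311288-45311537, plus strand: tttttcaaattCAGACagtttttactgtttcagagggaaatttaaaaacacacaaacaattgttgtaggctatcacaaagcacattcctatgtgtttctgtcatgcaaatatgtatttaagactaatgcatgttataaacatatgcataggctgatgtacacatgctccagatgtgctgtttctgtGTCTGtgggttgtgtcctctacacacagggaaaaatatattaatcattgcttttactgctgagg
Col1a2, chr6:4505368-4505617, plus strand: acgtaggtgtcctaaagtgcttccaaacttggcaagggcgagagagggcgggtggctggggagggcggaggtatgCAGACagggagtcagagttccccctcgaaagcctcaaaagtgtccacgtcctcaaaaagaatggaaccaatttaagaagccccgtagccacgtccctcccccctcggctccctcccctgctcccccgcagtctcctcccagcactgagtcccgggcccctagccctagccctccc
Col6a1, chr10:76726045-76726294, minus strand: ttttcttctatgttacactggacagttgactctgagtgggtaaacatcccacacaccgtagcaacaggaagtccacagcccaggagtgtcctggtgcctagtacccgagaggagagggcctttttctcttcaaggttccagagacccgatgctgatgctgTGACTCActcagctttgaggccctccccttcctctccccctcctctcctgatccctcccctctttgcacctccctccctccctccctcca

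The SMAD core was found 2 times before Col3a1, 1 time before Col1a2 and 0 times before Col6a1. It occurred in 42.2% of all 32851 windows of this length and in 10 of the 23 members that the promoter table holds. The AP-1 core occurred 1 time before Col6a1, in 1 of the 23 members and in 4.5% of all windows. Matches of this kind are descriptions of the letters only. Col4a1 and Col4a2, the basement membrane collagen IV pair, lie head to head on chromosome 8, with annotated ends that overlap by 85 bases.

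Total signal was even, since the mean intensity per array ran from 304.9 to 307.8. Medians of the arrays spanned 0.15 in log2 units. Hepatocyte markers had high signal on every array, with albumin (Alb) between 17610 and 21654. Transcripts of pancreatic acinar cells were present on 4 arrays, LF 1, LF+CR 1, LF+Ex 3 and HF+Ex 1, where colipase (Clps) read 221, 418, 320 and 730 against 45.9 to 53.1 elsewhere. HF 1 and HF+Ex 3, which belong to different groups, were the most alike of all 153 pairs of arrays (r = 0.9953 over genes within these arrays, against 0.9754 to 0.9928 for pairs of one group). The next pair, LF 3 and LF+Ex 2 at 0.9932, also joined different groups. HF+Ex 3 and, less so, HF 1 were high for many of the matrix genes. Whether these 2 arrays share an animal, an extraction or a batch was not tested. LF+CR 2 was the least like its group mates (r = 0.9769 with LF+CR 1 and 0.9754 with LF+CR 3), and was closer to HF 1 (0.9786). Nothing in the labels names an extraction, hybridisation or scan batch. The labels count the mice as separate animals, so p-values measure the spread between mice of a group.

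The matrix genes varied widely between mice of the same group, and this variation was shared among many of the genes. On LF+CR 2 the 33 members had a median deviation of 0.41 from their own means over the 18 arrays, and on HF+Ex 3 it was 0.47 (log2). The next highest were HF 3 at 0.155 and HF 1 at 0.12, and the lowest was LF 2 at -0.22. Their group mates LF+CR 1 and LF+CR 3 stood at -0.14 and -0.19, and HF+Ex 1 and HF+Ex 2 at 0.03 and -0.06. So LF+CR 2 and HF+Ex 3 each stood well above the other mice of their group. HF+Ex 3, HF 3 and HF 1 were on the high-fat diet, and LF+CR 2 on the low-fat diet.

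HF+Ex 3 was the highest array of its group for 29 of the 33 members (87.9%, against 34.9% of all tested genes). LF+CR 2 was the highest of its group for 28 of 33 (84.8%, against 35.4%). By contrast LF+CR 1 was the highest of its group for 0 of 33 members (25.4% of all genes). In HF the members were divided, with HF 1 highest for 14 (42.4%, against 29.0% of all genes) and HF 3 for 13 (39.4%, against 33.6%). Of all 34 measured members, 18 had their highest value of the whole series on HF+Ex 3 and 7 on LF+CR 2. The within-group standard deviation had a median of 0.23 over the members and 0.11 over all tested genes (log2).

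**Figure D1:**
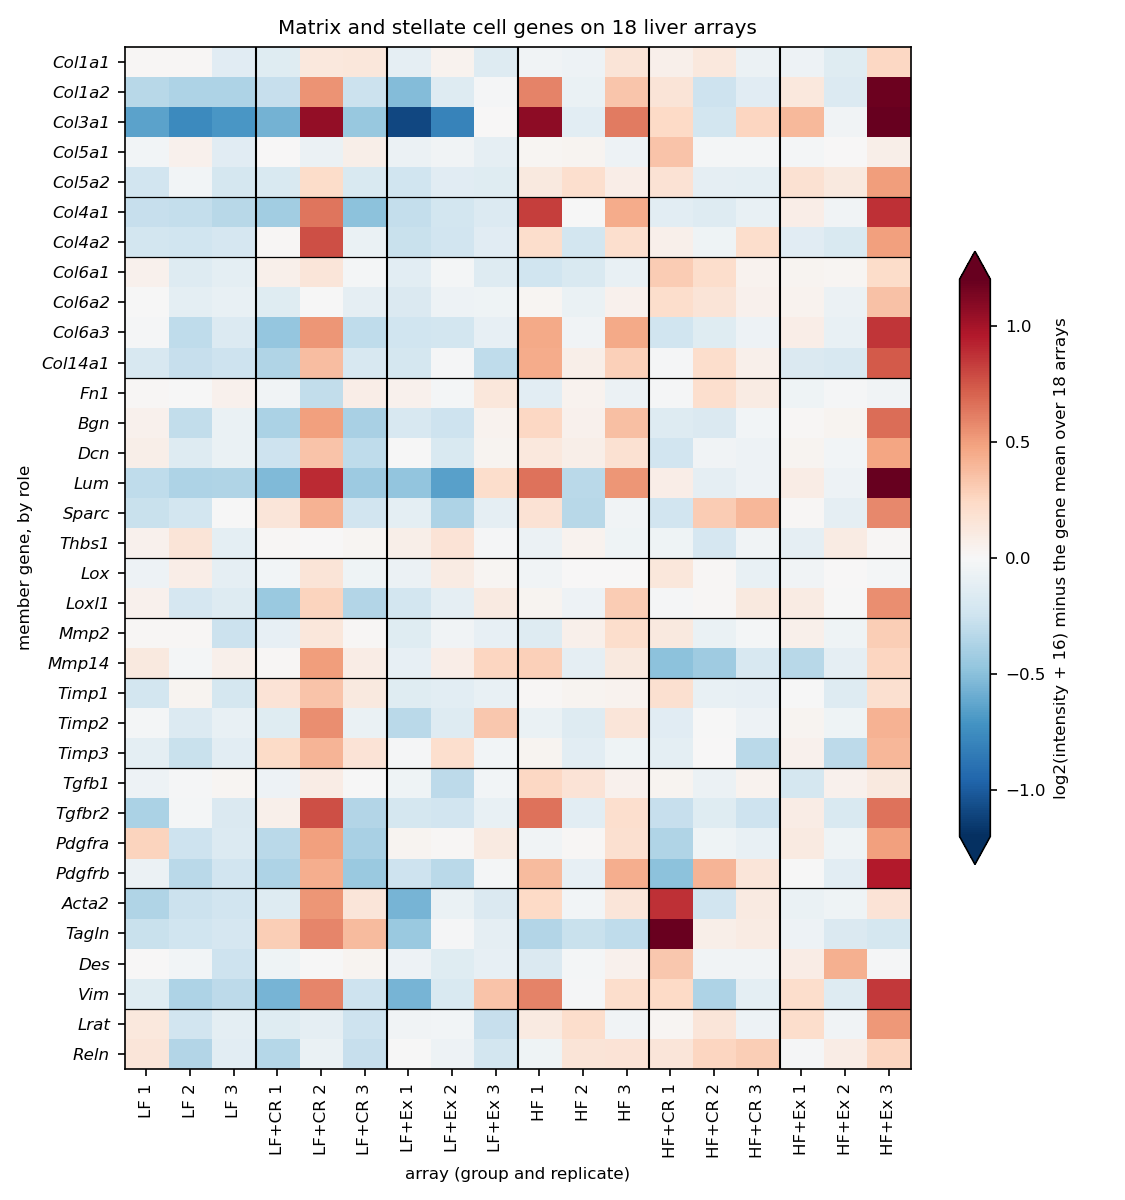
Deviation of each of the 34 measured members (rows, by role) from its own mean over the 18 arrays (columns, by group and replicate), in log2(intensity + 16); red is above the mean. LF+CR 2, HF 1 and HF+Ex 3 are red across most collagen, proteoglycan and receptor rows, while Tagln and Acta2 are highest on HF+CR 1.

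LF+CR 2, HF 1 and HF+Ex 3 held the 3 highest values of the series for 10 of 33 members (30.3%, against 3.97% of all genes). These were Col1a2, Col3a1, Col4a1, Col4a2, Col6a3, Col14a1, Lum, Mmp14, Tgfbr2 and Vim. At least 2 of the 3 arrays were in the top 3 for 23 members (69.7%, against 15.4%). These arrays were picked out in earlier results of these data for their position on the first principal component, so the overlap is a description and not independent evidence. They are called the 3 high arrays below, although the median deviation of the members was higher on HF 3 than on HF 1.

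Among fibrillar collagens, Col3a1, the type III chain that is abundant in early scar, varied most. Its intensity was 264, 241 and 252 in LF, 278, 891 and 303 in LF+CR, and 189, 235 and 421 in LF+Ex. In the high-fat groups it was 901, 385 and 656 in HF, 498, 360 and 507 in HF+CR, and 556, 408 and 1463 in HF+Ex. All 3 HF values exceeded all 3 LF values, yet LF+CR 2 lay close to the highest HF value and HF+Ex 3 far above every other array. The within-group SD of Col3a1 was 0.64 (log2), the largest of the members, and HF exceeded LF by 1.23 ± 0.46 (log2, SE; limma adjusted p = 0.211), which did not pass.

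Col1a2, the second chain of type I collagen, was also highest on HF+Ex 3, HF 1, LF+CR 2 and HF 3, in that order. It read 179, 173 and 173 in LF, 187, 340 and 189 in LF+CR, 155, 204 and 227 in LF+Ex, 356, 216 and 293 in HF, 257, 190 and 207 in HF+CR, and 252, 202 and 539 in HF+Ex. The difference between HF and LF was 0.65 ± 0.29 (limma adjusted p = 0.28), and 0.31 when its dim probe sets were averaged in. Col1a1, whose product joins Col1a2 in the type I trimer, spanned only 185 to 249 over all 18 arrays. Its HF minus LF difference was 0.05, and its other probe set was dim, above the detection threshold on 1 array.

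Col5a2, a type V chain that nucleates collagen fibrils, read 118, 137 and 119 in LF, 122, 167 and 121 in LF+CR, and 116, 126 and 126 in LF+Ex. In HF it read 154, 164 and 150, in HF+CR 160, 129 and 128, and in HF+Ex 162, 153 and 206. HF and LF did not overlap, and the difference of 0.29 ± 0.12 did not pass (limma adjusted p = 0.235). In 32 alternatives, with other settings or arrays left out, it passed only with array weights (0.31, adjusted p = 0.0364). Col5a1, its partner chain, stayed between 181 and 258.

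**Figure D2:**
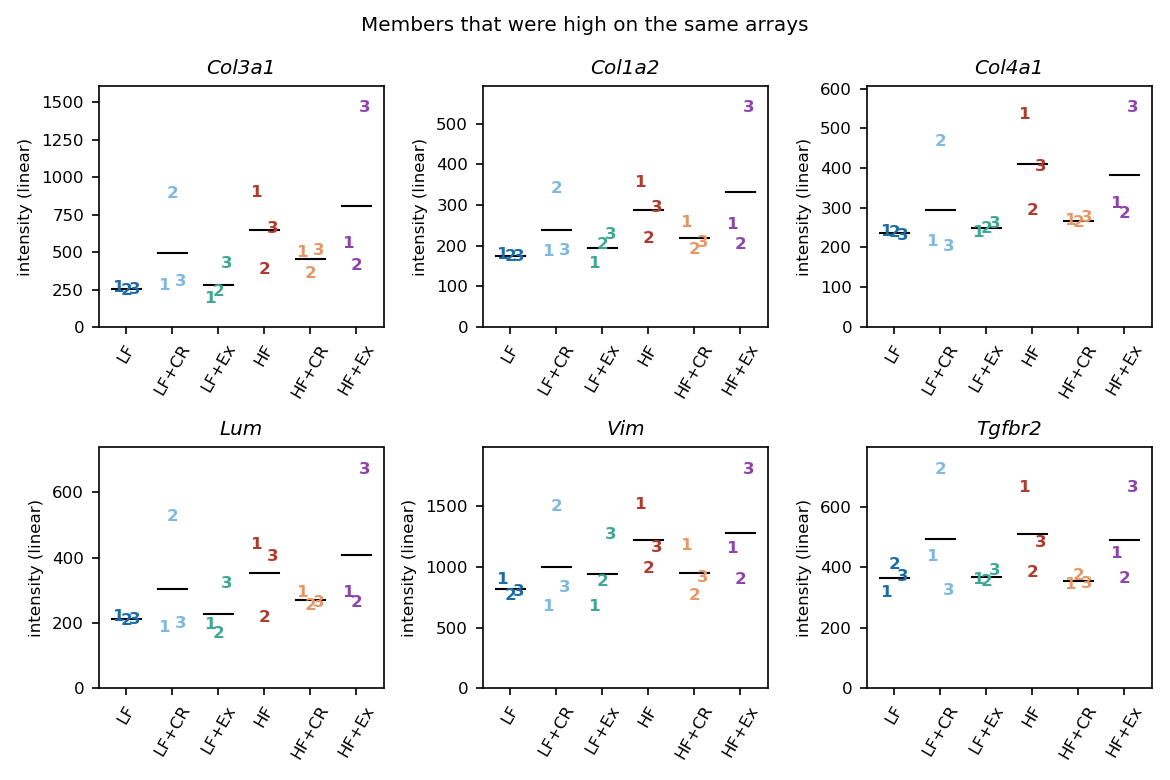
Linear intensity of 6 members on each array, by group; digits are replicate numbers and the black bar is the mean of 3 mice. LF+CR 2, HF 1 and HF+Ex 3 hold the 3 highest values in all 6 panels, for example 891, 901 and 1463 for Col3a1.

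The basement membrane chains Col4a1 and Col4a2 were both highest on those arrays. Col4a1 read 239, 237 and 229 in LF and 534, 293 and 405 in HF, with HF+CR at 267, 262 and 275 between them. HF exceeded LF by 0.72 ± 0.27 (limma adjusted p = 0.209). Without LF+CR 2, HF 1 and HF+Ex 3 the difference was 0.52 and passed, with an adjusted p of 0.0317. That fit had fewer mice and a smaller within-group spread. The Col4a1 difference also passed with array weights (0.695, adjusted p = 0.0368), and not in the other 30 of 32 alternatives. The second Col4a1 probe set gave 0.52 with all arrays. For Col4a2 the difference was 0.28 ± 0.20.

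Collagen VI, a beaded microfilament network around cells, gave 1 of the few called members. Col6a1 read 220, 189 and 194 in LF, 222, 236 and 208 in LF+CR, and 193, 208 and 189 in LF+Ex. In HF it read 177, 185 and 198, in HF+CR 266, 248 and 218, and in HF+Ex 217, 216 and 249. Every HF+CR and HF+Ex mouse was above every HF mouse, and HF 1 and HF 2 held the lowest values of the series.

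Col6a1 was higher in HF+CR than in HF by 0.36 ± 0.08 (log2, SE; limma adjusted p = 0.0192). HF+Ex exceeded HF by 0.26 ± 0.08 without passing (limma adjusted p = 1.0, unadjusted p below 0.05). Both comparisons share the HF mice. Its within-group SD was 0.10, under the 0.23 median of the members. The call was lost without HF 1 (0.32, adjusted p = 0.0978), without HF+CR 1 (0.30, adjusted p = 0.088) or without HF+CR 2 (0.34, adjusted p = 0.0721).

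Col6a2, encoded next to Col6a1 on chromosome 10, had means of 187 ± 9.8 in HF and 208 ± 12.4 in HF+CR (SD, n = 3), with overlapping values. Col6a3 ranged from 158 to 417 and followed the 3 high arrays, with 331 on LF+CR 2, 312 on HF 1 and 417 on HF+Ex 3. Col14a1, a fibril-associated collagen, had means of 362 ± 11.8 in LF and 524 ± 70.8 in HF, which did not overlap. Its difference was 0.51 ± 0.21 (limma adjusted p = 0.254), and 0.42 without the 3 high arrays (adjusted p = 0.0765).

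Lumican (Lum) and decorin (Dcn) are small leucine-rich proteoglycans that bind collagen fibrils, and biglycan (Bgn) is a close relative. Lum read 525 on LF+CR 2 against 186 and 199 for its group mates, and 670 on HF+Ex 3 against 295 and 263. In HF it read 441, 216 and 404, and in LF 220, 209 and 212, so HF 2 lay among the LF mice. Bgn spanned 878 to 1846 and Dcn 1842 to 3177, each with the highest value on HF+Ex 3. In HF+CR all 3 values of Bgn, and likewise of Dcn, lay below all 3 HF values, at differences of -0.34 ± 0.21 and -0.24 ± 0.15, and the other Bgn probe sets gave -0.025 and -0.064.

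Fibronectin (Fn1), which hepatocytes also secrete, read 3992 to 5649 and did not follow the high arrays, being lowest on LF+CR 2. Sparc, a collagen-binding matricellular protein, spanned 334 to 659, and its probe sets gave HF+CR minus HF differences of opposite sign, 0.23 and -0.13. Thbs1, thrombospondin 1, which can activate latent TGF-beta, was at the limit of detection, between 71.9 and 97.6. Loxl1, an enzyme that crosslinks elastin, spanned 71.6 to 161 and was also highest on HF+Ex 3.

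Mmp14 encodes the membrane-anchored metalloproteinase that activates Mmp2. It read 396, 358 and 380 in LF, 368, 521 and 388 in LF+CR, and 339, 386 and 438 in LF+Ex. The HF values were 448, 338 and 396, the HF+CR values 254, 266 and 316, and the HF+Ex values 285, 337 and 440. All 3 HF+CR mice were below all 3 HF mice, at a difference of -0.47 ± 0.15 (limma adjusted p = 0.0804). It did not pass in this fit or in 28 of 32 alternatives, among them the mean of its probe sets (-0.285, adjusted p = 0.0598). Without LF+CR 2, HF 1 and HF+Ex 3 it was -0.38 (adjusted p = 0.0962). It did pass with arrays weighted by their quality (-0.46, adjusted p = 0.0232). It also passed with a clock covariate, the log2 difference between Arntl and Dbp (-0.50, adjusted p = 0.0284). The same held without LF+CR 2 (-0.47, adjusted p = 0.0478) or without HF+Ex 3 (-0.47, adjusted p = 0.0486). A second Mmp14 probe set gave -0.41, and another gave 0.025. Mmp2, gelatinase A, stayed between 117 and 178.

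Timp1 is an inducible inhibitor of metalloproteinases and a common marker of liver injury. It lay close to the detection threshold, reading 94.4, 116 and 94.6 in LF, 128, 146 and 123 in LF+CR, and 100.3, 101 and 104 in LF+Ex. In HF it read 113, 116 and 116, in HF+CR 131, 105 and 103, and in HF+Ex 112, 99.1 and 130. The 3 LF+CR mice were above all LF and LF+Ex mice. LF+CR exceeded LF+Ex by 0.33 ± 0.10 (limma adjusted p = 0.0468) and LF by 0.34 ± 0.10 (limma adjusted p = 0.0553).

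The Timp1 call against LF+Ex did not survive 11 of 18 single-array omissions. Among them, leaving out LF+CR 2 gave 0.26 (adjusted p = 0.166), LF+Ex 1 gave 0.32 (adjusted p = 0.128), LF+Ex 2 gave 0.32 (adjusted p = 0.104), LF+Ex 3 gave 0.34 (adjusted p = 0.0931) and LF+CR 1 gave 0.35 (adjusted p = 0.0834). Leaving out LF 3, HF 1, HF 2, HF 3, HF+CR 2 or HF+Ex 1 left 0.33 with adjusted p from 0.0533 to 0.0607. Against LF the Timp1 difference passed in 7 of 31 alternatives. Among them were fits without LF 2 (0.42, adjusted p = 0.0318), HF+CR 1 (adjusted p = 0.0343), HF+Ex 2 (adjusted p = 0.0457) or HF+Ex 3 (adjusted p = 0.0378).

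Timp3, an inhibitor bound to the matrix, read 287, 329 and 275 in LF+CR against 223, 199.7 and 221 in LF. These groups did not overlap, at 0.44 ± 0.14 (limma adjusted p = 0.0776), and the other 3 Timp3 probe sets gave 0.53, 0.215 and 0.21. The difference passed in only 2 of 32 alternatives, those without HF+Ex 2 (adjusted p = 0.0263) or HF+Ex 3 (adjusted p = 0.0245). The probe sets of Timp2 disagreed, and the one used spanned 229 to 435 with its peak on LF+CR 2.

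**Figure D3:**
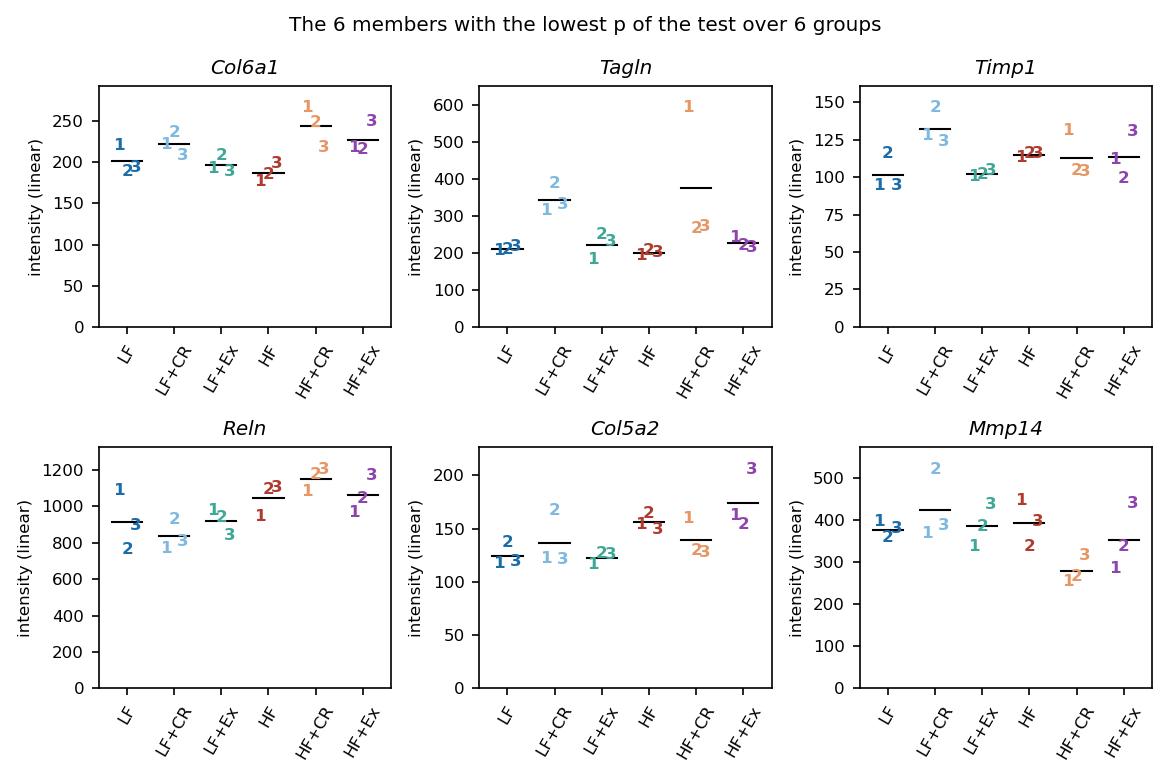
Linear intensity of the 6 members with the lowest p of the test over the 6 groups, on each array by group; digits are replicate numbers and the black bar is the mean of 3 mice. Tagln shows 591 on HF+CR 1 against 265 and 271 for its group mates, and Col6a1 shows HF below HF+CR and HF+Ex.

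Of the growth factor genes, the TGF-beta type II receptor Tgfbr2 had its highest values on LF+CR 2 (724), HF 1 (664) and HF+Ex 3 (664), with 318 to 483 on the other 15 arrays. Its other well-detected probe set stayed between 169 and 219. Tgfb1, the ligand, spanned 101 to 157, with HF at 157, 147 and 135 above LF at 124, 128 and 132. The receptor genes Pdgfra and Pdgfrb, which mark mesenchymal cells, spanned 136 to 263 and 130 to 382, both highest on HF+Ex 3. None of the 4 was called in any comparison.

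Tagln encodes transgelin (SM22), an actin-binding protein of smooth muscle and myofibroblasts, and had the highest F of the members in the test over the 6 groups (5.52, next to 5.50 for Col6a1). Its intensity was 206, 210 and 217 in LF, 313, 386 and 331 in LF+CR, and 181, 249 and 231 in LF+Ex. In HF it was 194, 206 and 201, in HF+CR 591, 265 and 271, and in HF+Ex 241, 221 and 216. Every calorie-restricted mouse, on either diet, was above every mouse of the other 4 groups, and the replicate HF+CR 1 stood far above its group mates.

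Tagln was higher in HF+CR than in HF by 0.76 ± 0.21 (log2, SE; limma adjusted p = 0.0424). LF+CR exceeded LF by 0.66 ± 0.21 (limma adjusted p = 0.0808). The difference between these effects, 0.10 ± 0.29, did not pass. Without HF+CR 1 the high-fat difference was 0.39 (adjusted p = 0.0652), while the low-fat difference of 0.66 passed with an adjusted p of 0.00091, since the spread within groups was then smaller. The low-fat difference passed in 3 of 32 alternatives.

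The Tagln call was lost in 12 of 18 single-array omissions. Besides HF+CR 1, these were HF 1 (0.74, adjusted p = 0.145), HF 3 (0.76, adjusted p = 0.0974) and HF 2 (0.78, adjusted p = 0.0757). They also included LF 1, LF 2, LF 3, LF+CR 1, LF+CR 3, LF+Ex 3, HF+Ex 1 and HF+Ex 2, with 0.76 and adjusted p from 0.0502 to 0.054.

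On HF+CR 1 other smooth muscle and bile duct transcripts were high beside Tagln. Acta2, alpha smooth muscle actin, read 1381 there and 632 and 805 on its group mates. Outside the members, Myl9 read 410 against 117 and 170.0, Actg2 225 against 91.1 and 101, and Cnn1 151 against 83.2 and 90.2. The cholangiocyte keratin Krt19 read 399, against 82.8 to 106 on the other 17 arrays. The smooth muscle list summed to 772 on HF+CR 1 and 474 to 576 elsewhere, with 5 of its 5 genes above threshold on that array. The cholangiocyte list summed to 953 there and 428.7 to 689 elsewhere, with 4 of its 5 genes above threshold. The part of these transcripts in the Tagln and Acta2 values was not tested.

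In LF+CR, Tagln was above LF in 3 of 3 mice, and Acta2 at 670.0, 1081 and 827 was above LF at 576, 620 and 633. LF+CR 2 had the next highest sums after HF+CR 1 for both lists, 576 for smooth muscle and 689 for cholangiocytes. Krt19, the keratin that was high on HF+CR 1, was not high on LF+CR 2. The part of either list in these values was not tested. Desmin (Des), a stellate cell intermediate filament, stayed between 136 and 227. Vimentin (Vim), a filament of mesenchymal cells and leukocytes, spanned 671 to 1802 and was highest on HF+Ex 3, HF 1 and LF+CR 2. Its 3 probe sets gave HF minus LF differences of 0.50 to 0.57.

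Of the genes of quiescent stellate cells, Lrat, the enzyme that makes the retinyl esters stored by stellate cells, read 272, 209 and 228 in LF, 223, 230.1 and 207 in LF+CR, and 241, 242 and 203 in LF+Ex. The HF values were 269, 291 and 241, the HF+CR values 252, 277 and 237, and the HF+Ex values 291, 241 and 364. On LF+CR 2, Lrat was highest of its group by a small margin, and on HF+Ex 3 it was the highest of the series. Its other probe set gave an HF minus LF difference of opposite sign, -0.09 against 0.17.

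Reln, reelin, a secreted glycoprotein of stellate cells, read 1088, 762 and 896 in LF, 771, 927 and 808 in LF+CR, and 977, 938 and 840.5 in LF+Ex. It read 944, 1094 and 1102 in HF, 1083, 1173 and 1204 in HF+CR, and 968, 1044 and 1172 in HF+Ex. The high-fat groups were mostly above the low-fat groups, with LF 1 and LF+Ex 1 inside their range. The test over the 6 groups gave an adjusted p of 0.0587 (limma), the next after the 2 called members Tagln (0.0349) and Col6a1 (0.0353). Over all genes, 14.3% were called by that test, against 2 of 33 members (6.06%).

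High-fat against low-fat feeding asked what the diet did without a regimen. No member was called, where 0.902% of all genes were. Of the 33 members, 29 were higher in HF (87.9%, against 42.4% of all genes), with a median difference of 0.17 against -0.025 over all genes. Some lists of other cells also leaned up, with medians of 0.28 for Kupffer cells, 0.13 for sinusoidal endothelium and 0.485 for 2 adipocyte genes. Hepatocyte markers stood at -0.04, 13 other collagens at -0.065 and the 138 tested genes of related matrix lists at 0.02. HF and LF did not overlap with HF higher for 8 members (24.2%, against 10.9%): Col1a2, Col3a1, Col5a2, Col4a1, Col14a1, Tgfb1, Acta2 and Vim. At an unadjusted p below 0.05, 5 members were higher (15.2%, against 8.47% of all genes), all of them collagens. Without LF+CR 2, HF 1 and HF+Ex 3, 27 of 33 were higher (48.9% of all genes) at a median of 0.18. Of these arrays only HF 1 belongs to the groups compared. HF 3, whose median deviation over the members was above that of HF 1, was kept. The members also vary together, so their count does not show a lean apart from the high mice.

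Calorie restriction on the low-fat diet gave 0 called members (5.57% of all genes). LF+CR was higher for 25 of 33 (75.8%, against 47.0%), with a median difference of 0.11, but without the 3 high arrays 14 of 33 were higher (47.9% of all genes) and the median was -0.01. With all arrays, LF+CR exceeded LF without overlap for 7 members (21.2%, against 8.99%): Col1a2, Col3a1, Col4a2, Timp1, Timp3, Acta2 and Tagln. At an unadjusted p below 0.05 there were 4, Col4a2, Timp1, Timp3 and Tagln (12.1%, against 8.54% for higher genes). For Col4a2 the difference was 0.45 with all arrays and 0.18 without LF+CR 2.

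Calorie restriction on the high-fat diet gave the only called members of a regimen against its own ad libitum group, Col6a1 and Tagln, both higher (6.06% of members, against 6.09% of all genes in either direction and 3.54% higher). Of the 33 members, 11 were higher in HF+CR (33.3%, against 60.9% of all genes) and 22 lower, with a median difference of -0.075 against 0.04 over all genes. The HF mice also enter the comparison of HF with LF, with opposite sign, so the leans of the members in these comparisons are not independent. Centring each array on its median turned the 502 higher and 362 lower calls over all genes into 292 and 514, with both member calls kept. Values did not overlap with HF+CR lower for 8 members (24.2%, against 13.4%): Col4a1, Col6a3, Bgn, Dcn, Mmp14, Tgfb1, Tgfbr2 and Pdgfra. None of these 8 was called. Without LF+CR 2, HF 1 and HF+Ex 3, 10 of 33 were higher (57.1% of all genes) and the median was -0.09, and neither Col6a1 (0.32, adjusted p = 0.0567) nor Tagln (0.74, adjusted p = 0.125) was called.

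**Figure D4:**
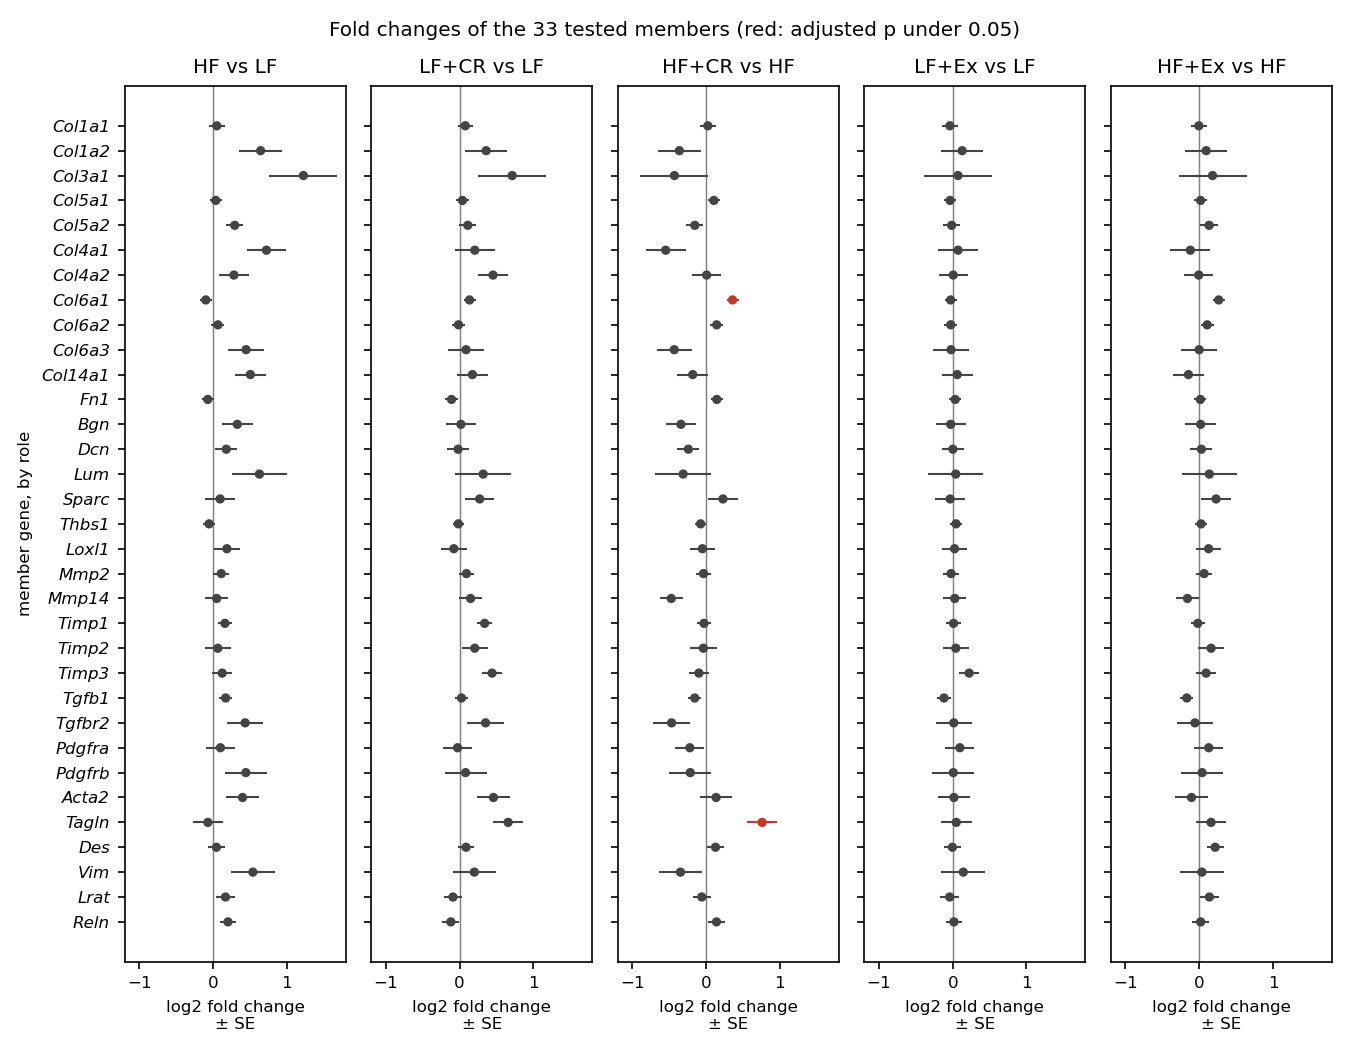
Log2 fold change (x axis, point) with its SE (line) of the 33 tested members (rows, by role) in 5 comparisons; red marks an adjusted p under 0.05. Points lie mostly right of 0 for HF vs LF (29 of 33) and mostly left for HF+CR vs HF (22 of 33), and Col6a1 and Tagln in HF+CR vs HF are the 2 red points. HF vs LF and HF+CR vs HF share the HF mice, which enter with opposite sign.

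Wheel running gave 0 called members on either diet (0.00704% of all genes for LF+Ex against LF, 0% for HF+Ex against HF). The members' median difference was 0.015 for LF+Ex minus LF, with 21 of 33 higher (63.6%, against 41.7% of all genes), and 0.04 for HF+Ex minus HF, with 23 higher (69.7%, against 45.5%). At an unadjusted p below 0.05 there were 0 members on the low-fat diet (3.95% of all genes) and 1, Col6a1, on the high-fat diet (3.03%, against 2.44% of all genes). Without the 3 high arrays, only 7 of 33 were higher in HF+Ex than in HF (41.0% of all genes), at a median of -0.09, so the direction of the set there rested on those arrays.

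Restriction against running gave Timp1 as the 1 called member on the low-fat diet (3.03%, against 9.30% of all genes). On the high-fat diet 0 members were called (2.72% of all genes), with 2 members, Tagln and Col5a2, at an unadjusted p below 0.05 (6.06%, against 22.4% of all genes). No member had a called difference between diets in its response to restriction (5.74% of all genes) or to running (0.00704%). For restriction the members' median of that difference was -0.24, against 0.05 over all genes, and -0.05 without the 3 high arrays. The Tgfbr2 probe sets disagreed on this difference, at -0.82 for the one used and -0.08 and 0.23 for the others, and those of Mmp14 gave -0.62, -0.57 and 0.18. Tgfbr2 (-0.82 ± 0.35), Mmp14 (-0.62 ± 0.22), Timp3 (-0.54 ± 0.19) and Timp1 (-0.37 ± 0.14) had an unadjusted p below 0.05, as did Fn1 (0.25 ± 0.12), which makes 5 members (15.2%, against 23.7% of all genes). For running, Col6a1 alone did (0.29 ± 0.12; 3.03%, against 2.52%).

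Some markers of other liver cells were high on the same arrays. The Kupffer cell list had median deviations of 0.66 on LF+CR 2, 0.46 on HF 1 and 0.32 on HF+Ex 3, but also 0.48 on HF 2 and 0.35 on LF 2, where the members stood at -0.04 and -0.22. All 8 Kupffer genes were above threshold on LF+CR 2, 8 on HF 1 and 6 on HF+Ex 3, and their summed intensity was 11478, 10302 and 9267 against 5347 to 10269 elsewhere. Gpnmb, a gene of lipid-associated macrophages, read 209, 212 and 243 on these 3 arrays and 107 to 178.5 on the others. The list of recruited macrophages and monocytes summed to 3272, 3125 and 3024 there and to 1719 to 2581 elsewhere. The proliferation list summed to 951 on LF+CR 2 and 526.7 to 627 on the other 17 arrays, and the T and NK cell list to 1083 on LF+CR 2 and 775.6 to 932 on the others. The adipocyte list was highest on HF+Ex 3 (970.2) and HF 1 (875), against 429 to 850.2 elsewhere, with 549 on LF+CR 2. The part of these cells in the shared variation was not tested.

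Sinusoidal endothelial markers, all 9 above threshold on every array, deviated by -0.03 on LF+CR 2, 0.19 on HF 1 and 0.06 on HF+Ex 3. Their summed intensity ranged from 4203 to 5209. Of 9 markers of portal fibroblasts and mesothelium, 3 to 5 were above threshold on each array, and their summed intensity was 827 on LF+CR 2, 780 on HF 1 and 866.4 on HF+Ex 3, against 787 to 865.4 elsewhere. Within the list, Entpd2 read 125.5 to 188, while Thy1 read 65.0 to 93.4, Cd34 65.5 to 82.6, Gli1 63.2 to 70.9 and Wt1 59.0 to 74.0. Pancreatic markers were at their floor on the 3 high arrays, with Clps at 45.9 on LF+CR 2, 47.8 on HF 1 and 45.9 on HF+Ex 3.

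**Figure D5:**
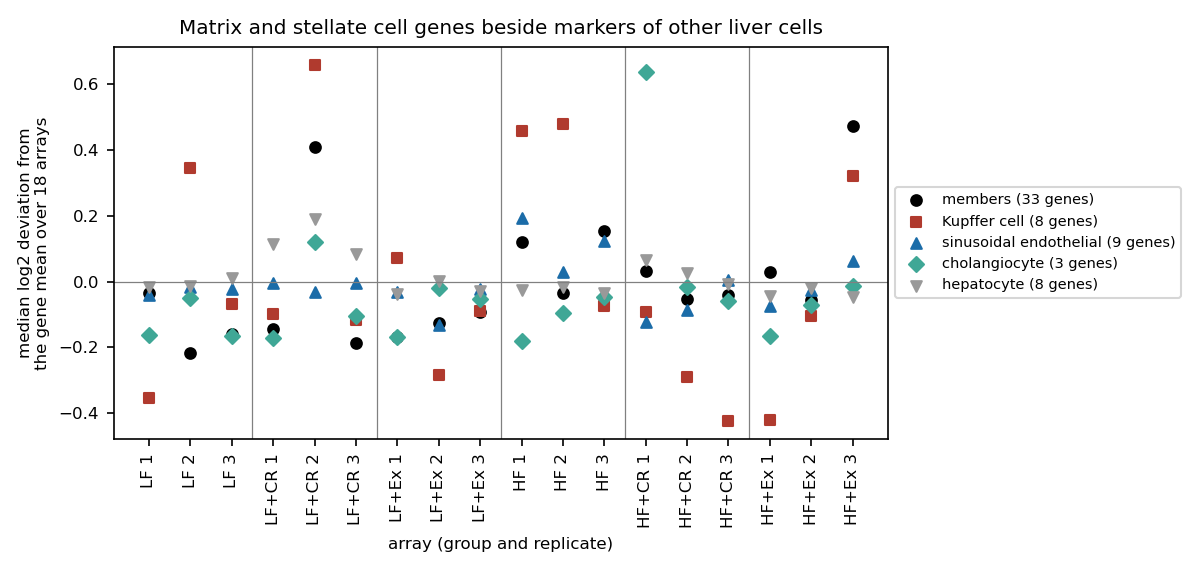
Median log2 deviation from the gene mean over 18 arrays (y axis) for the 33 tested members and for markers of 4 other liver cell types, on each array (x axis). The members peak on LF+CR 2 (0.41) and HF+Ex 3 (0.47), the Kupffer cell markers on LF+CR 2 (0.66), HF 2 (0.48) and HF 1 (0.46), and the cholangiocyte markers on HF+CR 1 (0.635).

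Other genes of matrix assembly and signalling were read from written lists, chosen like the members with earlier results of these data known. Of 138 tested genes, 2 rose in HF against LF (1.45%), 3 rose and 2 fell in LF+CR against LF (3.62%), and 4 rose and 4 fell in HF+CR against HF (5.80%), beside 0.902%, 5.57% and 6.09% of all genes. Running gave 0 calls on either diet.

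In HF, the matricellular protein periostin (Postn), induced in scar and stroma, and the metalloproteinase Mmp19 were higher. Postn read 409, 265 and 311 in HF against 166, 146 and 154 in LF, at 0.99 ± 0.22 (limma adjusted p = 0.0469). Its values on LF+CR 2, HF 1 and HF+Ex 3 were 284, 409 and 423. The call was lost in 12 of 18 single-array omissions, with values from 0.82 to 1.12, and at the lowest value without HF 1 (0.82, adjusted p = 0.243). It was kept only without LF+CR 2, HF 2, HF+CR 1, HF+Ex 1, HF+Ex 2 or HF+Ex 3. Mmp19 read 186, 166 and 176 in HF against 113, 107 and 117 in LF, at 0.58 ± 0.11 (limma adjusted p = 0.0181). That call was lost in 5 omissions, among them HF 1 (0.54, adjusted p = 0.104), HF 3 (0.58, adjusted p = 0.0841) and LF 1 (0.58, adjusted p = 0.0709). The other 2 were LF 2 (0.55, adjusted p = 0.0564) and LF 3 (0.60, adjusted p = 0.0513). Without the 4 arrays with pancreatic transcripts neither Postn (1.03, adjusted p = 0.21) nor Mmp19 (0.58, adjusted p = 0.14) was called.

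In HF+CR, 2 of 12 laminin and other basement membrane genes were called, both higher (list median 0.02), and 1 of 14 collagen processing genes was called in each direction (list median 0.08). Lamb1, a laminin chain of basement membranes, read 288, 217 and 287 against 183, 179.7 and 194 in HF, at 0.465 ± 0.09 (limma adjusted p = 0.00924). Ppib, a prolyl isomerase of the endoplasmic reticulum that aids collagen folding, read 3614, 3684 and 3662 against 2635, 2419 and 2692 in HF, at 0.50 ± 0.08 (limma adjusted p = 0.00205). Lama3 rose from a mean near background, at 0.41 ± 0.07 (limma adjusted p = 0.00492). These 3 calls held in 18 of 18 single-array omissions. Lamb1 was not called with the mean of its probe sets (0.18, adjusted p = 0.0733) or with only the groups compared (0.465, adjusted p = 0.0514). The microfibril gene Mfap2 rose by 0.45 ± 0.13 (limma adjusted p = 0.0457), a call lost in 13 omissions and at 0.29 without HF+CR 1 (adjusted p = 0.175). It was kept only without LF+CR 2, LF+Ex 2, HF+CR 2, HF+CR 3 or HF+Ex 3.

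Among genes that fell in HF+CR, Nt5e, the ecto-enzyme CD73 that is found on portal fibroblasts and stellate cells and also on hepatocytes, read 114, 113 and 143 against 325, 306 and 364.5 in HF. That is a change of -1.32 ± 0.23 (limma adjusted p = 0.0043), held in 18 of 18 omissions and at -0.45 with its probe sets averaged (adjusted p = 0.0148). Plod1, a lysyl hydroxylase of procollagen, fell by 0.28 (adjusted p = 0.0162), and not without HF 1 (adjusted p = 0.0734), HF 2 (adjusted p = 0.0555) or HF+CR 1 (adjusted p = 0.0737). Mmp19 fell by 0.52 (adjusted p = 0.0106), and not without HF 1 (adjusted p = 0.0567) or HF+CR 2 (adjusted p = 0.0583). Rgs5, a pericyte gene, fell by 0.63 (adjusted p = 0.0449), a call lost in 11 omissions, at the largest adjusted p without HF 1 (-0.54, adjusted p = 0.189). It was kept only without LF+CR 1, LF+CR 2, LF+CR 3, HF 2, HF+CR 3, HF+Ex 1 or HF+Ex 3.

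In LF+CR, Bmp1, the protease that trims procollagen C-propeptides, read 460, 366 and 518 against 704, 748 and 683 in LF, at -0.66 ± 0.11 (limma adjusted p = 0.00214). It also fell against LF+Ex, by 0.72 (adjusted p = 0.000648), and both calls held in 18 of 18 omissions, while the one against LF was lost with only the groups compared (adjusted p = 0.0551) and was -0.29 with its probe sets averaged (adjusted p = 0.0384). Nid2, nidogen 2 of basement membranes, read 117, 161 and 125 against 86.5, 85.8 and 87.8, at 0.54 ± 0.11 (limma adjusted p = 0.00634), with LF near background. That call too was lost with only the groups compared (adjusted p = 0.0715). Smad2, a transducer of TGF-beta receptors, rose by 0.31 (adjusted p = 0.0108), and not without LF+CR 1 (0.25, adjusted p = 0.0624), with the mean of its probe sets (0.15, adjusted p = 0.249), with only the groups compared (adjusted p = 0.135) or without the 4 arrays with pancreatic transcripts (0.29, adjusted p = 0.106).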

How the data were processed

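Total RNA from the livers of 18 mice was extracted with Trizol, per the labels' protocols, and 1 array was hybridised per mouse. The deposited values are linear intensities per probe set. The sources used here do not say how the authors summarised and scaled them, or whether the mice were fed or fasted. In the deposited table are 45101 probe sets, of which 64 are controls; 34945 have 1 symbol in the platform annotation of the array, 932 several and 9160 none.

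Each gene was read from its probe set with the highest mean. The 14198 genes exceeding the 40th percentile on 3 or more arrays were tested as log2(intensity + 16). One limma fit (version 3.58.1, in R 4.3.3) with a mean for each of the 6 groups used all 18 arrays (12 residual and 3.61 prior degrees of freedom), with 9 contrasts and a test over the 6 groups. Differences between 2 groups had a median SE of 0.085, and interactions one of 0.121.

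The members and lists were chosen with earlier results of these data known. Full values were given for called members and for those with the lowest p of the test over the groups, up to 8; genes outside the members came from the written lists, up to 3 called genes a list. Values of other members were added where a described pattern turned on them. The fit was tested on simulated data before use. Alternatives were 3 scalings or variance models, other offsets and filters, array weights, the replicate block, fewer groups and each array left out. Leaving out the 3 high arrays or the 4 with pancreatic transcripts, and a clock covariate (log2 Arntl minus Dbp), were added with results known. No array held the values of another.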

Additional observations from a re-analysis of the deposited data

Results flagged for a closer look

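For 7 of the 138 tested list genes outside the members, the effect of calorie restriction differed between diets. That is 5.07%, against 5.74% of all tested genes. The interaction test was HF+CR minus HF less LF+CR minus LF (limma). Lama3 (0.66, adjusted p = 0.00149), Bmp1 (0.79, adjusted p = 0.00857), Mfap2 (0.63, adjusted p = 0.0469) and Lamb1 (0.50, adjusted p = 0.0373) had a more positive change on the high-fat diet. Nt5e (-1.83, adjusted p = 0.00423), Postn (-1.27, adjusted p = 0.0263) and Mmp19 (-0.89, adjusted p = 0.00331) had a more negative change on the high-fat diet. The sign does not say on which diet the change was larger. Bmp1 was called lower in LF+CR against LF (-0.66) and was not called in HF+CR against HF. Nt5e was called lower in HF+CR against HF (-1.32) and was not called in LF+CR against LF.

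The interactions of Lama3, Bmp1, Mmp19 and Nt5e were kept in 18 of 18 single-array omissions. When probe sets of 1 gene were averaged, Bmp1 (0.31, adjusted p = 0.113), Lamb1 (0.19, adjusted p = 0.175) and Mfap2 (0.44, adjusted p = 0.0926) lost their calls, and Nt5e kept its call at -0.70. Without the 4 arrays with pancreatic transcripts, Bmp1 (0.82, adjusted p = 0.0593), Postn (-1.38, adjusted p = 0.074), Lamb1 (0.45, adjusted p = 0.133) and Mfap2 (0.715, adjusted p = 0.104) did. Lamb1 kept its call in 9 omissions, Postn in 13 and Mfap2 in 4. For Postn the losses came without LF 2, LF 3, LF+CR 2, HF 1 or HF+CR 2, with values from -1.27 to -1.11. For Lamb1 they came without LF 1, LF 2, LF+CR 1, LF+CR 3, HF 1, HF 2, HF 3, HF+CR 1 or HF+CR 3. For Mfap2 the call was kept only without LF+Ex 2, HF 2, HF+CR 2 or HF+Ex 3, and the value was 0.47 without HF+CR 1 (adjusted p = 0.0844).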

How the results depend on the processing

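None of the single-gene differences followed through the alternatives changed direction, but most of these were chosen because they were called. Without the 3 high arrays other differences of members did change direction. Lum went from 0.32 to -0.14 for LF+CR against LF, and Col3a1 from 0.18 to -0.08 for HF+Ex against HF. The members' median also changed direction, from 0.04 to -0.09 for HF+Ex against HF and from 0.11 to -0.01 for LF+CR against LF. The counts of called members moved as follows. HF against LF, 0 with all settings as reported, was 2 with array weights and 1 without the 3 high arrays. LF+CR against LF, 0 as reported, was 1 with quantile normalization, 1 with trended robust variance, 2 with array weights and 1 with only the groups compared, and 0 to 2 over single-array omissions. HF+CR against HF, 2 as reported, was 1 without the filter, 0 with only the groups compared, 0 without the 3 high arrays and 1 without the 4 arrays with pancreatic transcripts. It was 3, with Mmp14 added, under array weights or the clock covariate, and 0 to 3 over omissions. LF+CR against LF+Ex, 1 as reported, was 2 with array weights and 2 with the mean of the probe sets. It was 0 with quantile normalization, median centring, offset 64, no filter, the 60th percentile filter, the clock covariate, or without the 3 or the 4 arrays, and 0 to 2 over omissions. The restriction by diet interaction, 0 as reported, was 1 with array weights, only the groups compared or the clock covariate, and 0 to 1 over omissions. The test over the 6 groups, 2 as reported, was 4 with quantile normalization, 1 with median centring, 11 with array weights, 0 without the 4 arrays and 4 with the clock covariate, and 0 to 4 over omissions. The other comparisons stayed at 0 in every setting run.

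Same-numbered mice did not pair: over 45 pairs the correlation of deviations ran from -0.412 to 0.337, and 2 of 18 arrays correlated best with their own number. With the replicate block, HF+CR against HF had 1 called member, LF+CR against LF+Ex had 0 and the test over the 6 groups 0. Col6a1 lost its call in HF+CR with only the groups compared (adjusted p = 0.0555). The causes were not tested. Genes near the detection threshold, such as Thbs1, Lox and Lama3, have compressed fold changes. With 3 mice a group, a difference that did not pass may still be present.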
